A study of Mus musculus with 2 samples.

Results

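The T-box genes encode transcription factors that bind DNA through a shared domain, the T-box, and 9 of them are described here in the mouse limb at embryonic day 13.5: Tbx1, Tbx2, Tbx3, Tbx4, Tbx5, Tbx6, Tbx15, Tbx18 and Tbx20. They were chosen by name, not by level, though with earlier results of these data known. All 9 were matched among the 43346 Ensembl genes of the tables, with 20 transcripts in all. The samples were 2 libraries of total RNA longer than 200 nt, each made from 10 ng of RNA of limbs of B6NCrl embryos of both sexes, pooled and healthy, with no treatment or mutation named in the labels. They form 1 group and carry biological replicate numbers 1 and 2, come from separate tissue samples under a common donor entry, and are not said to be forelimb, hindlimb or both. There is therefore no comparison between conditions and no p-value. A value with ± gives the mean over both libraries and its SD (n = 2), and whether that spread is biological or technical rests on the numbering alone.

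Tbx5 and Tbx4 are textbook factors of limb outgrowth: Tbx5 acts in the forelimb and Tbx4, downstream of Pitx1, in the hindlimb, and both feed into Fgf10 signalling from the mesenchyme to the ectoderm. Tbx2 and Tbx3 are repressors with roles in digit patterning and in the control of proliferation. Tbx15 and Tbx18 are close paralogs known from the skeleton and mesenchyme of the trunk and limb girdles. Tbx1, Tbx6 and Tbx20 are best known outside the limb, in the pharyngeal apparatus, the presomitic mesoderm and the heart.

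The listed genes fell into 3 ranges of level. Tbx5, Tbx3, Tbx4, Tbx15 and Tbx18 lay between 17.4 and 36.5 TPM, the deposited level scaled for transcript length and library size. Tbx1 and Tbx2 lay between 4.17 and 5.12 TPM, and Tbx6 and Tbx20 stayed below 1 TPM. Of the 9 genes, 7 reached 1 TPM in both libraries, as did 34.6% of all Ensembl genes and 61% of protein-coding genes. Together the 9 genes summed to 119 TPM in replicate 1 and 140 TPM in replicate 2, and the 5 genes of the upper range made 91.6% and 93.3% of that. In bulk tissue, fewer cells of a type and less RNA per cell cannot be told apart.

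**Figure D1:**
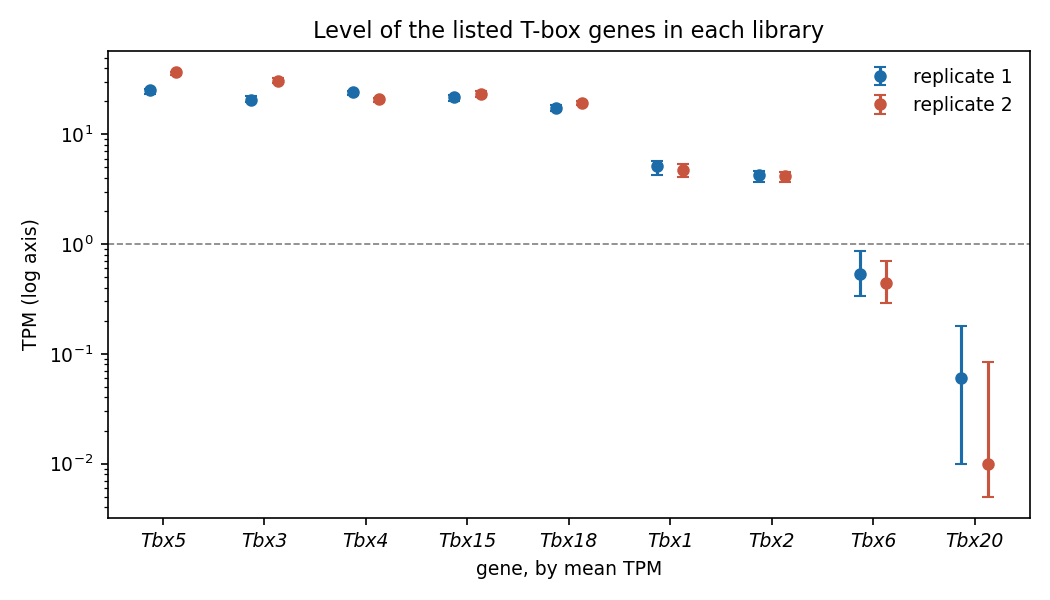
Level of each listed T-box gene in each library in TPM on a log axis, with genes ordered by mean. Points are the deposited values, bars the deposited credibility intervals (probability level not stated), and the dashed line marks 1 TPM; 5 genes sit above 17 TPM, and Tbx6 and Tbx20 sit below the line in both libraries.

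The libraries held 31927117 and 43194518 expected counts, with 2.11% and 2.07% on spike-ins, and their log2(TPM + 1) values had a Pearson r of 0.995 across genes, which are not independent replicates. Of the 8 defining markers of limb mesenchyme, 8 reached 1 TPM in both libraries, as did 61% of protein-coding genes. Among them were Msx1 at 253 ± 39.1 TPM and Prrx1 at 141 ± 11.3 TPM, with Lmx1b the lowest at 6.22 ± 0.269 TPM. The list was chosen with earlier results of these data known, so the count does not test the limb label.

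Tbx5 (ENSMUSG00000018263, chromosome 5, 119832668 to 119885219, plus strand, mm10) was the highest listed gene, at 25.2 TPM in replicate 1 and 36.5 TPM in replicate 2, from 2019 and 3885 counts. Tbx4 (ENSMUSG00000000094, chromosome 11, 85886422 to 85916097, plus strand) stood at 24.4 and 20.9 TPM, from 1532 and 1735 counts. The pair was close to level in replicate 1, where Tbx5 was 1.03-fold above Tbx4, and apart in replicate 2, where it was 1.74-fold above. Over both libraries Tbx5 was 1.34-fold higher, a mean log2 ratio of 0.43 that passed the rule used for gene pairs: the same sign in both libraries and a mean above 2 times the combined replicate SD (0.159) of genes of like level. Without replicate 2 the ratio was 0.05 and no longer passed. The log2 ratio changed by 0.752 between the libraries, where genes of like level give an SD of 0.226 for such a change. The SD in the rule is thus smaller than the spread of this pair. Tbx5 made 50.8% of the summed TPM of the pair in replicate 1 and 63.6% in replicate 2.

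The coding sequences of the listed genes were compared, since reads from a stretch that paralogs share are the ones another gene could take. Among the 36 pairs of listed genes the longest shared coding run was between 11 and 23 bases, with 3 pairs at 23: Tbx4 and Tbx5, Tbx5 and Tbx6, and Tbx15 and Tbx18. No window of 100 bases in any transcript of the 9 genes was found on the same strand in a transcript of another gene. That length was used because effective lengths in the tables equal length minus 99, as reads of 100 bases would give.

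Tbx3 (ENSMUSG00000018604, chromosome 5, 119670669 to 119684724, plus strand) stood at 20.6 and 30.8 TPM, from 2029 and 3904 counts. Tbx2 (ENSMUSG00000000093, chromosome 11, 85832551 to 85841948, plus strand) stood at 4.26 and 4.17 TPM, from 313 and 407 counts. Tbx3 was thus the higher of these paralogous repressors in each library, 4.74-fold in replicate 1 and 7.24-fold in replicate 2. The mean log2 ratio of 2.55, or 5.86-fold, was past the spread (combined SD 0.244), and Tbx3 made 82.8% and 88.1% of the summed TPM of the pair.

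The longest identical coding run that Tbx2 and Tbx3 share is 14 bases and is shown here. Likeness along their sequences was not measured in any other way. The capitals mark the shared run, with 20 coding bases on either side, read from the GENCODE M21 transcripts. The stretches lie at chr11:85833411-85833464 and chr5:119672314-119672367, on the plus strand (mm10).
Tbx2: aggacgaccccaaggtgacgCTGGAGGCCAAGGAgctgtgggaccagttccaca
Tbx3: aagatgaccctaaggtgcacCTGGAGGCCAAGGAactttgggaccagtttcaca
Tbx2 lies near Tbx4 on chromosome 11, with 44473 bases between the genes. Tbx3 lies near Tbx5 on chromosome 5, with 147943 bases between them. Other annotated genes lie in both gaps, among them Gm11444 in the first and Tbx3os2 in the second. The genes of the first pair were unequal: Tbx4 was 5.61-fold above Tbx2 in replicate 1 and 4.93-fold in replicate 2, a mean log2 difference of -2.40 for Tbx2 over Tbx4 (combined SD 0.258) that was past the spread. The genes of the second pair were closer, with Tbx5 1.23-fold and 1.18-fold above Tbx3, and the mean log2 ratio of -0.27 for Tbx3 over Tbx5 (combined SD 0.135) lay at the edge of the spread and did not pass. It passed on FPKM (-0.27) and without replicate 2 (-0.29).

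Tbx15 (ENSMUSG00000027868, chromosome 3, 99240381 to 99354259, plus strand) stood at 21.8 and 23.3 TPM, from 1533 and 2122 counts. Tbx18 (ENSMUSG00000032419, chromosome 9, 87702800 to 87731260, minus strand) stood at 17.4 and 19.4 TPM, from 1663 and 2459 counts. Tbx15 was the higher in both libraries, 1.25-fold and 1.20-fold, but the mean log2 ratio of 0.29 was within the spread (combined SD 0.18). These paralogs share a coding run of 23 bases, shown in the same way. The Tbx15 stretch starts and ends at chr3:99313105-99314796 on the plus strand and the Tbx18 stretch at chr9:87724421-87727373 on the minus strand, both across an exon junction.
Tbx15: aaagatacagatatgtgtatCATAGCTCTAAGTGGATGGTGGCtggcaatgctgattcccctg
Tbx18: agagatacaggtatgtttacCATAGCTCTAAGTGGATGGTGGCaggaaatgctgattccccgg

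Tbx1 (ENSMUSG00000009097, chromosome 16, 18580979 to 18590671, minus strand) was low but steady, at 5.12 and 4.76 TPM from 179 and 221 counts. Tbx6 (ENSMUSG00000030699, chromosome 7, 126781483 to 126785560, plus strand) stood at 0.53 and 0.44 TPM, from 18 and 20 counts. Tbx20 (ENSMUSG00000031965, chromosome 9, 24718138 to 24774303, minus strand) had 2 counts in each library. That is under the 3 counts that a count of 0 allows in either library, which would be 0.094 and 0.0695 CPM, so its level was not measurable at this depth. These limits cover counting error only.

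In order of mean TPM the genes were Tbx5 (30.9 ± 8), Tbx3 (25.7 ± 7.26), Tbx4 (22.7 ± 2.44), Tbx15 (22.5 ± 1.08), Tbx18 (18.4 ± 1.39), Tbx1 (4.94 ± 0.255), Tbx2 (4.22 ± 0.0636), Tbx6 (0.485 ± 0.0636) and Tbx20 (0.035 ± 0.0354). Of the 8 steps between neighbours in that order, 2 were past the spread: the 3.67-fold step from Tbx18 down to Tbx1 and the 7.40-fold step from Tbx2 down to Tbx6. The latter rests on the 18 and 20 counts of Tbx6 and did not pass at 3 times the SD. The other steps were within it. Among the upper 5 genes no single step passed. Tbx5 and Tbx4, which are not neighbours in the order, did pass as a pair, but not without replicate 2. The step from Tbx6 to Tbx20, a log2 ratio of 2.14 (combined SD 1.104), narrowly missed the rule and passed it with the SD taken over 200 genes, on posterior means (2.02), on CPM (1.99) and without replicate 1 (2.30). Tbx3 and Tbx4 changed places between the libraries: replicate 1 ran Tbx5, Tbx4, Tbx15, Tbx3, Tbx18, and replicate 2 ran Tbx5, Tbx3, Tbx15, Tbx4, Tbx18.

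Between the libraries, after scaling by the trimmed mean of M values (TMM), Tbx5 and Tbx3 were each 1.43-fold higher in replicate 2. Their log2 ratios were 0.51 and 0.51, 5.39 and 5.38 times the SD of the ratio (0.095) over 500 genes of like counts. Tbx4 moved the other way and was 1.19-fold higher in replicate 1, a log2 ratio of -0.25 or 2.5 times that SD (0.101). The log2 ratios of the other members that had 10 counts or more in each library were 0.04 for Tbx15, 0.13 for Tbx18, -0.13 for Tbx1, -0.05 for Tbx2 and -0.27 for Tbx6, each below 2 times its SD. No member of these 8 passed 2-fold, which 1.19% of 17406 genes did (0.299% higher in replicate 2 and 0.89% higher in replicate 1).

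The deposited credibility intervals of TPM describe the counting and the assignment of reads, not the spread between tissues. They were apart, with replicate 2 higher, for 3 of the 8 members, Tbx3, Tbx5 and Tbx18, and for 7.7% of genes with 10 counts in each library. They were apart with replicate 1 higher for Tbx4 alone of the 8, and for 2.36% of those genes. For Tbx5 the interval ran from 23.5 to 25.6 TPM in replicate 1 and from 34.7 to 36.9 TPM in replicate 2. For Tbx4 it ran from 22.6 to 25.0 and from 19.6 to 21.5 TPM.

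**Figure D2:**
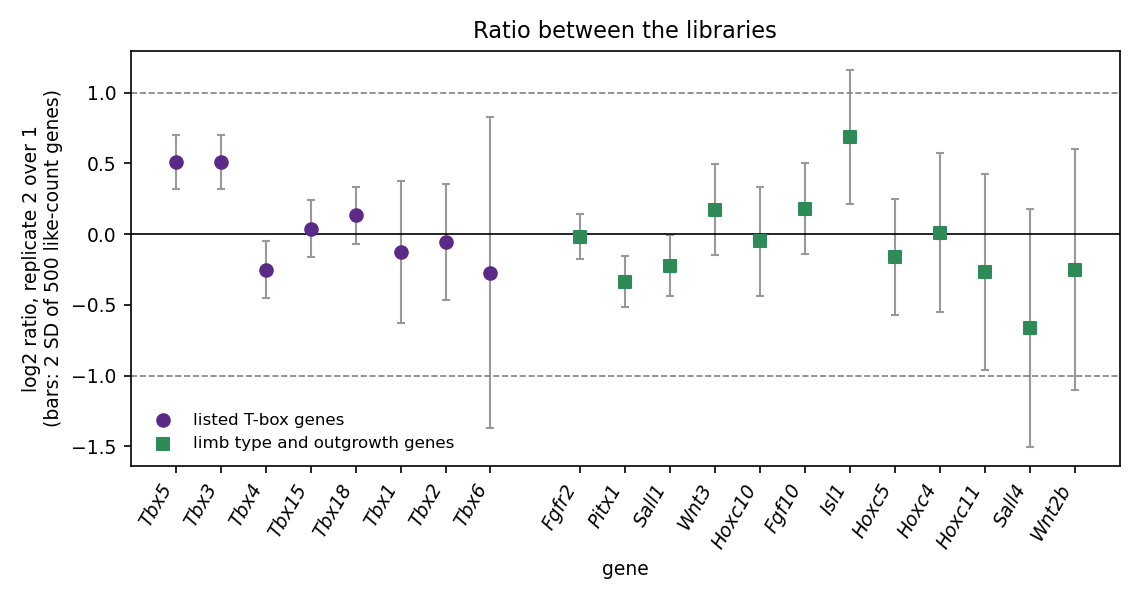
Log2 ratio of replicate 2 over replicate 1 (TMM-scaled counts + 0.5) for the 8 listed T-box genes that had 10 counts or more in each library (circles) and for 12 limb type and outgrowth genes (squares). Bars are 2 times the SD of 500 genes of like counts and dashed lines mark 2-fold; Tbx5 and Tbx3 at 0.51 and Isl1 at 0.69 lie above 0 beyond their bars, and Tbx4 at -0.25, Pitx1 at -0.34 and Sall1 at -0.23 below.

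Genes of limb type were set beside Tbx4 and Tbx5 because the labels do not say which limbs were taken. Pitx1, the hindlimb factor upstream of Tbx4, stood at 90.4 and 73.8 TPM, and its log2 ratio of -0.34 was 3.73 times the SD of like-count genes, the same direction as Tbx4. Isl1, which is needed to start the hindlimb, stood at 4.27 and 5.75 TPM with a log2 ratio of 0.69 (2.89 times the SD), the opposite direction. The caudal Hox genes Hoxc10 (9.38 and 9.20 TPM) and Hoxc11 (2.12 and 1.79 TPM) had log2 ratios of -0.05 and -0.27, and the more rostral Hoxc4 (3.98 and 4.05 TPM) and Hoxc5 (5.46 and 4.22 TPM) had 0.01 and -0.16. These 4 lay within 2 times the SD of genes of like counts. The Hoxc5 model starts inside that of Hoxc10 on the same strand, and both have fractional counts. Which of these genes some reads came from is therefore uncertain. Genes known from either limb type were detected in both libraries, and whether the share of forelimb and hindlimb differed between them was not tested.

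The same ratios were read for the marker lists of cell types in the limb. The ectoderm and ridge list had a median log2 ratio of 0.25 over 7 of 7 genes, with summed levels of 438 and 502 TPM, beside a median near 0 (-0.000467) over all genes with 10 counts in each library. Limb mesenchyme had a median of 0.07 (607 and 676 TPM), muscle 0.07 (1304 and 1346 TPM), dermis 0.11 (644 and 639 TPM) and lymphatic endothelium -0.03 (111 and 113 TPM). The part of ectoderm or of any other tissue in the higher Tbx3 and Tbx5 of replicate 2 was not tested.

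Transcript shares could be read for 6 of the 9 genes, since Tbx1, Tbx2 and Tbx5 have a single transcript in the tables. A share is the percent of the summed TPM of a gene that falls on the transcript. Of the 5 genes with several transcripts that had 10 counts in each library, 5 had the same leading transcript in both libraries, as did 89.2% of 11299 such genes.

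Tbx3 was spread over 3 long coding transcripts. Tbx3-203 led with 48.5% and 54.0%, Tbx3-201 had 34.6% and 28.8%, and Tbx3-202 had 16.9% and 13.5%. The retained-intron transcript Tbx3-204 took 0% and 3.72%, and Tbx3-205 was listed at 0 in both. Tbx3-201 differs from the others in its coding part by an exon of 60 bases at chr5:119675243-119675302 (plus strand, mm10), and an isoform with an insertion in the DNA-binding domain is known for this gene. The junction is shown with the exon in capitals and 30 coding bases on either side, and then without it.
Tbx3-201: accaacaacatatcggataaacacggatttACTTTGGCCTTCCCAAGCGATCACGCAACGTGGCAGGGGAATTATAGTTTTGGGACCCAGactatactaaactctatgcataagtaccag
Tbx3-203: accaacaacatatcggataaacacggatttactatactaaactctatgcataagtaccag
The exon holds 20 whole codons and starts on a codon boundary, with 0 stop codons in frame, and the coding sequence is 2226 bases with it and 2166 without. Among the 3 long coding transcripts, the form with the exon made 34.6% in replicate 1 and 29.9% in replicate 2, a mean of 32.3% ± 3.32. In TPM it stood at 7.11 and 8.88, and the forms without it at 13.4 and 20.8. Only 153 of the 4757 windows of 100 bases in Tbx3-201 are in no other Tbx3 transcript. The deposited intervals for it were wide: from 4.11 to 9.61 TPM and from 6.43 to 10.6 TPM, which overlap. Those of the leading Tbx3-203 were apart, from 7.12 to 12 TPM in replicate 1 and from 14.3 to 18.3 TPM in replicate 2.

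**Figure D3:**
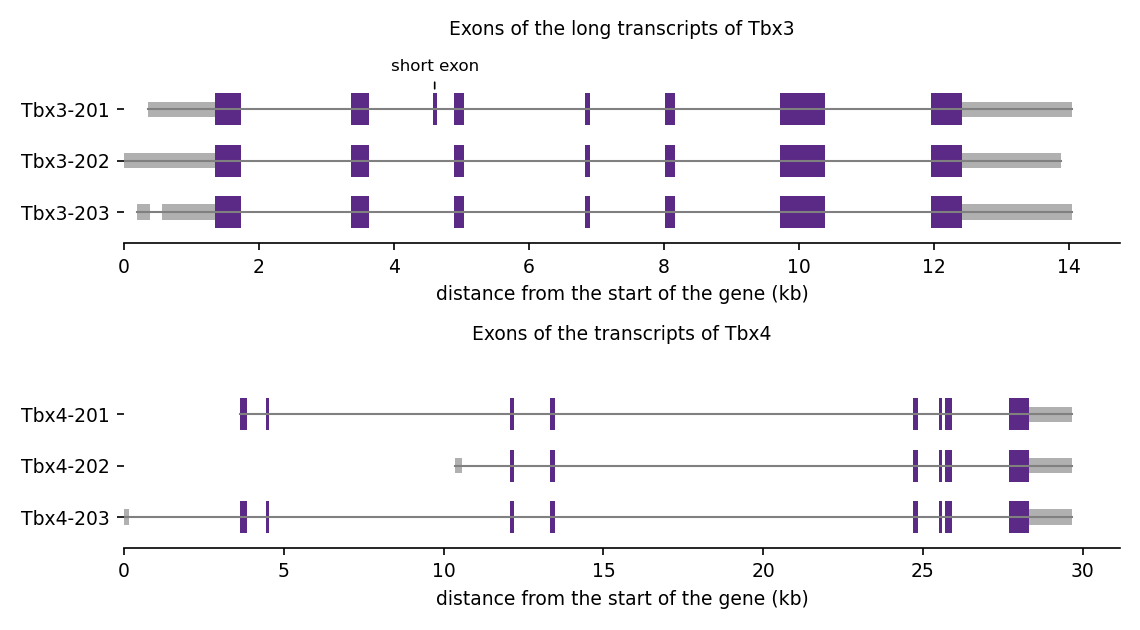
Exons of the 3 long transcripts of Tbx3 and the 3 transcripts of Tbx4 in GENCODE M21, drawn by distance from the start of the gene in kb. Tall boxes are coding, low boxes untranslated; Tbx3-201 alone has the short exon, and Tbx4-202 starts 10343 bases after Tbx4-203 and lacks its first coding exons.

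Tbx4-203 was the leading transcript of Tbx4, with 78.1% and 66.2%. Tbx4-202 had 13.1% and 20.2%, and Tbx4-201 had 8.76% and 13.6%. Tbx4-203 and Tbx4-201 have the same coding sequence of 1659 bases. Tbx4-202 starts 10343 bases downstream of Tbx4-203 and its coding sequence of 1359 bases is the end of the longer one, 100 codons shorter at the start. The first coding bases are shown with the annotated start codon in capitals, at chr11:85890063-85890122 for Tbx4-203 and chr11:85898497-85898556 for Tbx4-202 (plus strand, mm10).
Tbx4-203: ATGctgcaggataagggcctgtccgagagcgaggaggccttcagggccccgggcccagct
Tbx4-202: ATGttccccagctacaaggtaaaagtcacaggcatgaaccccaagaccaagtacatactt
The full coding sequence made 86.9% and 79.8% of Tbx4, a mean of 83.3% ± 5.01. In TPM the full form went from 21.2 in replicate 1 to 16.7 in replicate 2 and the short form from 3.20 to 4.23. The intervals of Tbx4-202, from 1.71 to 4.75 and from 2.97 to 5.25 TPM, overlap between the libraries, so the difference in share was not resolved. Tbx4-201 has 2 windows of 100 bases of its own, and its interval in replicate 1 ran from 5.3e-06 to 6.04 TPM, so its share was hardly determined.

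Tbx15-201 carried 97.3% and 94.5% of Tbx15. The short Tbx15-203, of 333 bases, took 2.72% and 5.50% on 2.89 and 8.3 counts, and Tbx15-202 was listed at 0. Tbx18-201 and Tbx6-201 each took 100% in both libraries. By posterior means the share of Tbx6-201 was 69.7% and 81.9%, so its 18 and 20 counts leave room for Tbx6-202. The 2 counts of Tbx20 fell on Tbx20-202 in replicate 1 and on Tbx20-201 in replicate 2.

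**Figure D4:**
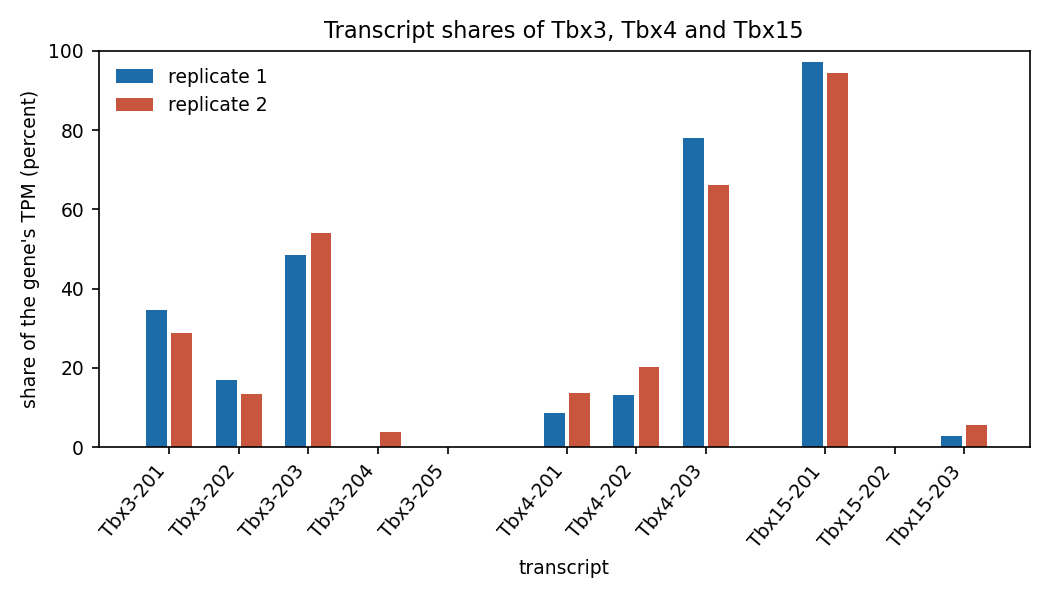
Share of each transcript in its gene's TPM (percent) for Tbx3, Tbx4 and Tbx15, with a bar for each library. Tbx3-203, Tbx4-203 and Tbx15-201 led in both libraries, at 48.5% and 54.0%, 78.1% and 66.2%, and 97.3% and 94.5%.

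The other 8 T-box genes were nearly all low. Beside 61% of protein-coding genes, 1 of these 8 reached 1 TPM in both libraries. That gene was Mga, which joins a T-box to a helix-loop-helix region and partners Max; it stood at 30.6 and 29.9 TPM, close to Tbx5. T, the Brachyury gene, stood at 0.80 and 0.51 TPM, Tbx22 at 0.36 and 0.40 TPM, and Tbr1 at 0.23 and 0.15 TPM. Eomes stood at 0.23 and 0.60 TPM, from 16 and 47 counts, and was over 2-fold higher in replicate 2 (log2 ratio 1.10). Tbx10, Tbx19 and Tbx21 were listed at 0 in replicate 1 and at 0.02, 0.04 and 0.08 TPM in replicate 2. The latter values rest on 1, 1 and 5 counts. The 9 listed genes made 78.7% and 81.6% of the summed TPM of all 17 T-box genes.

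Of 12 limb type and outgrowth genes, 10 reached 1 TPM in both libraries, with a median of 6.45 TPM. For this and the lists below, the same share was 34.6% over all Ensembl genes and 61% over protein-coding genes. Fgfr2, whose ectodermal form is the receptor for Fgf10, was the highest at 107 ± 0.141 TPM, followed by Pitx1 at 82.1 ± 11.7 TPM and the zinc finger gene Sall1 at 11.9 ± 1.17 TPM. Fgf10 itself stood at 7.88 ± 0.75 TPM, and Wnt2b was the lowest at 0.87 ± 0.099 TPM. Of 6 genes of muscle connective tissue and tendon, where Tbx4 and Tbx5 act at later stages, 6 did so, with a median of 78.4 TPM. Ctnnb1 (459 ± 12.9 TPM), Tcf7l2 (151 ± 4.82 TPM) and Osr2 (84.3 ± 7.63 TPM) were the highest of them.

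Of 13 digit and interdigit signalling genes around Tbx2 and Tbx3, 12 reached 1 TPM in both, with a median of 16.8 TPM. Msx1, Gli3 (43.9 ± 1.56 TPM) and Msx2 (34.0 ± 6.17 TPM) led. The BMP ligands Bmp4, Bmp7 and Bmp2 stood at 28.9 ± 3.76, 27.4 ± 0.636 and 22.5 ± 0.559 TPM, in the range of Tbx3. Shh, the signal of the posterior limb bud, was listed at 0.02 TPM in each library from 1 and 1.72 counts. Like Tbx20, it was not measurable at this depth. Of 6 cell cycle and adhesion genes known to be repressed by Tbx2 and Tbx3, 5 were detected. Cdkn1c stood at 766 ± 0.53 TPM, Cdkn1a at 89.0 ± 1.70 TPM, Cdh1 at 15.8 ± 1.09 TPM and Cdkn2b at 1.97 ± 0.0495 TPM, whereas Cdkn2a had 0 counts in both libraries. All 10 corepressor and partner genes passed 1 TPM; their median was 71.7 TPM and they ran from Tle4 at 13.3 ± 0.7 TPM to Aes at 338 ± 3.95 TPM.

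Of 10 proximal limb and girdle genes set beside Tbx15 and Tbx18, 10 reached 1 TPM in both, with a median of 24.6 TPM. The cartilage genes Col2a1 (647 ± 73.6 TPM), Sox9 (181 ± 9.69 TPM) and Sox5 (76.1 ± 7.1 TPM) were the highest, and Alx4 was the lowest at 2.11 ± 0.0354 TPM. Of 6 dermis markers, 6 were detected, with a median of 47.2 TPM and Crabp1 the highest at 482 ± 8.56 TPM.

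Markers of the tissues in which Tbx1, Tbx6, Tbx18 and Tbx20 are best known were read as well. Beside them, 34.6% of all Ensembl genes and 61% of protein-coding genes reached 1 TPM in both libraries. Of 10 heart markers 1, Hand1, was detected at 2.40 ± 0.198 TPM, with Nkx2-5, Nppb and Bmp10 at 0 counts in both libraries. Of 9 presomitic mesoderm markers 4 were detected, led by Lfng at 10.3 ± 0.106 TPM, and the defining markers Msgn1 and Ripply2 had 0 counts. Of the pharyngeal markers, Eya1, which is also a muscle gene, stood at 13.1 ± 2.64 TPM and Pax9 at 7.18 ± 1.73 TPM. Foxn1 (0.305 ± 0.148 TPM), Foxi3 (0.15 ± 0.0283 TPM) and Foxe1 (0.01 ± 0.0141 TPM) stayed below 1 TPM, whereas Gcm2 had 0 counts in both libraries. Of 6 epicardium and mesothelium markers 2 were detected, Krt19 (16.9 ± 1.82 TPM) and Upk1b (10.7 ± 0.601 TPM), both also epithelial. Wt1 stood at 0.53 TPM in each library and Msln at 0 and 0.02 TPM, from 0 and 1 counts. Of 6 spinal and motor neuron markers 0 reached 1 TPM in both. Of 8 muscle markers 6 were detected, with Pax3 and Pax7 below 1 TPM, and of 6 lymphatic endothelium markers 6.

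**Figure D5:**
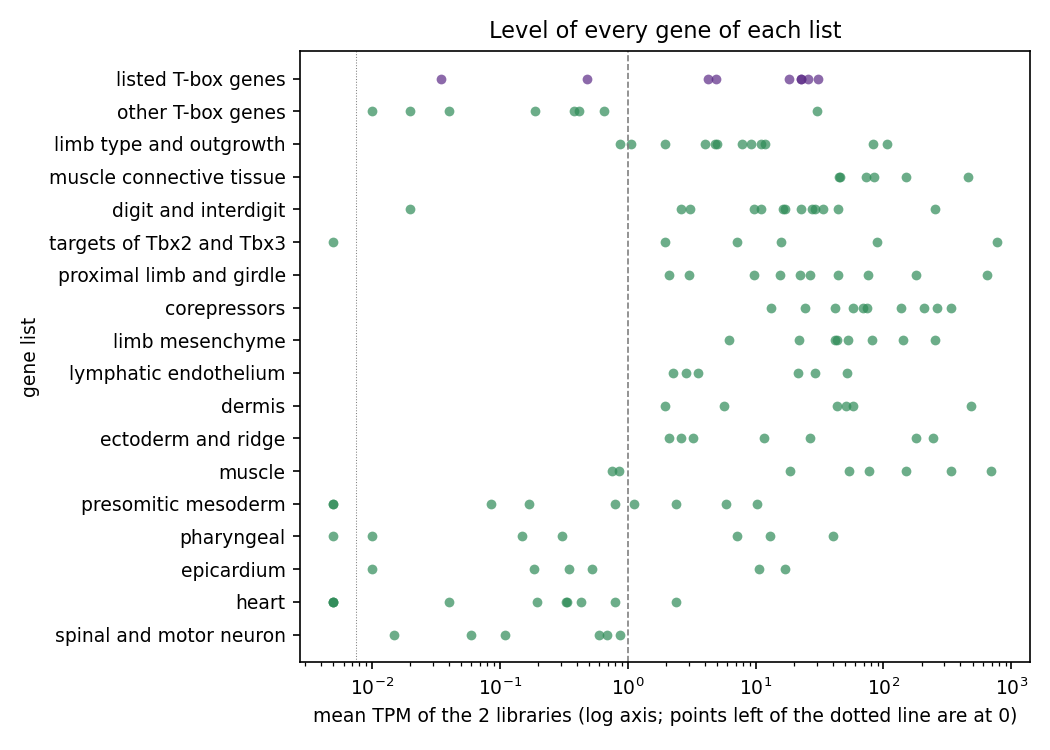
Mean TPM of the libraries (log axis) for every gene of the listed T-box set and of each of the 17 gene lists, 1 point per gene; the dashed line marks 1 TPM and points left of the dotted line are at 0. All points of the corepressor and limb mesenchyme lists lie above 1 TPM, and those of the neuron list below it. The muscle connective tissue, proximal limb and girdle, lymphatic endothelium, dermis, and ectoderm and ridge lists also lie wholly above 1 TPM.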

How the data were processed

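Per the labels, extraction used mirVana, ERCC spike-ins were added and the build was mm10. The deposited text files name GENCODE M4 as annotation. For aligner, quantifier, versions and strand the entry is: not given in the sources used here. The authors deposited expected counts (model estimates that need not be whole), TPM, FPKM, the percent share of each transcript, and posterior means with bounds of credibility intervals, per the file headers. Bare-number and phiX rows held 0.000226% and 0.000148% of the counts and were left out.

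Symbols matched 42462 of 43346 genes. Positions, exons and sequences came from GENCODE M21, also on mm10; 16 of the 20 transcripts had the same length there, and Tbx1, Tbx5 and Tbx20 models differ. Expected counts were rounded for edgeR 4.0.16 (TMM, genes with 10 counts in each library) and DESeq2 1.42.0 (alternative size factors), and no gene-wise test was run. Ratios used counts + 0.5 and pairs TPM + 0.1, in Python 3.11.15. The replicate SD pools 500 genes of like level and includes genes that truly vary. The ratio step, given the known scaling, and the SD step, on the most abundant genes only, were tested on simulated data. The estimation of scaling factors was not tested in this way. All listed and other T-box genes and the 3 highest and the lowest gene of each list were to be named, others where they bear on a count; some of the lists' genes are given as counts. The members and lists were chosen with earlier results of these data known. A withheld gene and a withheld sequence are not reported here.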

Additional observations from a re-analysis of the deposited data

How the results depend on the processing

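The members at 1 TPM (7), the members over 2-fold apart (0) and the number of fixed pairs past the spread (3, and 4 on FPKM) stayed within 1.5 times under every alternative run. The pairs themselves were not the same throughout: without replicate 2, Tbx5 over Tbx4 was lost (0.05) and Tbx3 over Tbx5 gained (-0.29). Steps in the order past the spread went from 2 to 1 at 3 times the SD, to 5 on CPM of expected counts, and to 3 and 4 with 1 library left out (chosen after seeing the data; 4 without replicate 1, 3 without replicate 2). The 5 on CPM include Tbx3 over Tbx4 (0.79), a step among the upper 5 genes. They also include Tbx1 over Tbx2 at -0.83, which runs against the order by TPM. At 0.5 TPM 2 other T-box genes, 2 heart and 3 neuron markers were detected. On CPM, which are not divided by length, the log2 ratio became -0.01 for Tbx5 over Tbx3 (0.01 for the reverse), -0.15 for Tbx4 over Tbx15, -0.16 for Tbx15 over Tbx18 and -0.83 for Tbx1 over Tbx2. Tbx4 over Tbx15 was -0.01 on posterior means and -0.15 and 0.16 without replicate 1 and 2, and Tbx3 over Tbx4 was 0.56 and -0.25 in the same order. No paired analysis was possible because there is 1 group. The 18 and 20 counts of Tbx6 and the 2 of Tbx20 limit their levels, and the call on their step changed under 4 alternatives. Strand use, which is not given, leaves reads of Tbx3 and Tbx18 open to overlapping antisense genes. The deposited posterior SD of their counts lay between 1.51 and 2.28.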

Other observations

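Genes that overlap or flank the T-box genes were read as well. Tbx3os1, on the opposite strand and overlapping the start of Tbx3, stood at 10.1 and 13.5 TPM on 54.0 and 97.2 counts, and 17 of the 5452 windows of 100 bases of Tbx3 are found on its other strand. D030062O11Rik overlaps Tbx18 on the opposite strand and stood at 0.65 and 0.28 TPM, and 736 of the 4618 windows of Tbx18 are found on its other strand. Reads from such windows cannot be told apart without strand, and the counts of Tbx3, Tbx18 and both antisense genes were fractional. D030062O11Rik had 36.9 and 20.9 counts. The deposited posterior SD of the count was 1.51 and 1.87 for Tbx3 and 2.28 and 1.82 for Tbx18. Tbx3os2, beyond the end of Tbx3, had 3 and 11 counts. Beside Tbx2, 2610027K06Rik stood at 1.92 and 1.86 TPM, 328 bases from the gene. Tbx6, the low gene of the presomitic mesoderm, lies between highly expressed genes: Ypel3 (101 and 94.9 TPM) ends 969 bases before it and Ppp4c (222 and 215 TPM) 306 bases after it. Gnb1l beside Tbx1 stood at 14.3 and 15.0 TPM, Wars2 beside Tbx15 at 7.75 and 7.08 TPM, and Dpy19l2 beside Tbx20 at 0.24 and 0.26 TPM.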
